A study of Homo sapiens with 8 samples.

Results

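The 150 sgRNAs described here target 15 genes of the NuA4-TIP60 complex, KAT5, TRRAP, EP400, EPC1, EPC2, DMAP1, MRGBP, MORF4L1, MORF4L2, MBTD1, BRD8, ING3, YEATS4, RUVBL1 and RUVBL2, with 10 sgRNAs for each gene. They are all the sgRNAs that the count tables assign to these genes, out of 7856 in the library, and were taken by gene name alone. The genes themselves were chosen with earlier results of these data known. The sgRNAs belong to EPIKOL, a pooled lentiviral knockout library against chromatin regulators. It was delivered into T1-160, a derivative of the triple-negative breast cancer line SUM159PT that had been raised to grow in Taxol (paclitaxel), a drug that stabilises microtubules. The screen asked which knockouts the resistant cells lose or gain during growth, and which of these depend on the drug.

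All libraries came from the same kind of cell: Taxol-resistant, expressing Cas9, infected with EPIKOL and selected with puromycin in the presence of verapamil, an inhibitor of drug efflux. The AP group (after puromycin, replicates 1 and 3) was collected at the end of this selection and received no further drug. The DMSO group (replicates 1 to 3) was grown in vehicle, and the Taxol group (replicates 1 to 3) in 160 nM Taxol, both for 16 population doublings. A single resistant line was screened, and the labels do not tell whether replicates were infected or grown separately. The p-values of tests on single sgRNAs or gene means therefore measure only how far these libraries scatter, which may be technical scatter. The p-values that combine the ranks of the sgRNAs of a gene use this scatter only through the ranks. They measure how far sgRNAs of a gene crowd at one end of the ranking. Part of its sgRNAs can suffice, while others go the other way.

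NuA4-TIP60 is a chromatin complex that acetylates the tails of core histones and exchanges histone variants, and it acts in transcription and in the repair of DNA breaks. KAT5 (TIP60) is the acetyltransferase, TRRAP is a very large scaffold that contacts transcription factors and is also part of SAGA, and EP400 is the ATPase that holds the complex together. EPC1 and EPC2 are paralogues that join KAT5 to the rest, ING3, MBTD1, MORF4L1, MORF4L2, BRD8 and YEATS4 carry or belong to reader modules that bind modified histones, and MRGBP partners the MRG proteins MORF4L1 and MORF4L2. DMAP1 and YEATS4 are shared with the SRCAP remodelling complex, and the AAA+ ATPases RUVBL1 and RUVBL2 are shared with SRCAP and INO80.

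The libraries held between 2045984 (Taxol 2) and 11771418 (Taxol 1) recovered reads, or 260.4 to 1498 reads per sgRNA. The level of a sgRNA is its deposited normalized count, the level of a gene is the mean of log2(normalized count + 1) over its 10 sgRNAs, and a fold change is a difference of such levels on that log2 scale, on which changes at low counts appear smaller than they are. The ± after a fold change is the SD between libraries, pooled over both groups (n = 3 DMSO or Taxol libraries, n = 2 AP libraries). Each comparison has its own table, scaled separately, so normalized counts of one table cannot be set against those of another. The median of all 779 genes tested lay at 0.15 in DMSO against AP, 0.20 in Taxol against AP and 0.03 in Taxol against DMSO, and a member near 0 therefore lay slightly below the median gene in the comparisons with AP. With libraries scaled to their totals the median gene moved by -0.38, -0.74 and -0.31 in these comparisons, and with the non-targeting sgRNAs set to 0 it moved by -0.31, -0.53 and -0.17. Signs are therefore given on the deposited scale and, where it matters, relative to the median gene.

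Before any growth in DMSO or Taxol, sgRNAs against 3 members were already scarce. In the AP libraries the mean log2 level was 7.30 for RUVBL2, 7.94 for TRRAP and 8.02 for KAT5, against 9.04 for the median gene. Counted from the lowest of 779 genes these 3 genes ranked 2, 25 and 35. The median sgRNA of RUVBL2 had 146 normalized counts in AP 1 and 232 in AP 3, where the median gene had 565 and 562. That of TRRAP had 277 and 312, and that of KAT5 had 279 and 267. All 3 genes were low in both AP libraries. RUVBL1, the partner of RUVBL2 in the same ring, did not share this pattern, with a mean log2 level of 8.90 and rank 305. DMAP1 lay at 9.03 with rank 383, MRGBP at 9.20 with rank 500 and MORF4L2 at 9.31 with rank 558, so the genes with the largest later changes did not start scarce. Of the 15 members, 10 lay in the lower 389 of the 779 genes. The 13 ribosomal protein genes of the library, needed by every growing cell, had a median rank of 53. The composition of the virus pool was not analysed here, so that a low share of these sgRNAs in the pool and a loss of cells during selection cannot be told apart.

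The comparison of DMSO with AP asked which knockouts are lost or gained over 16 doublings without the drug. sgRNAs against DMAP1 and MRGBP were depleted, by 0.97 ± 0.16 and 0.72 ± 0.11 on the log2 scale, to 0.512 and 0.608 of their AP level. The catalytic subunit KAT5 and the ATPase RUVBL1 had fold changes of -0.48 ± 0.42 and -0.59 ± 0.30 and did not pass the test, and MORF4L2 had a fold change of 0.67 ± 0.35 in the opposite direction, with an adjusted p for enrichment of 0.0933. By RRA (robust rank aggregation of sgRNAs ranked by limma, one-sided, Benjamini-Hochberg adjusted over all genes) 2 of the 15 members were depleted, where 2.31% of all genes were, and 0 were enriched, where 0.128% of all genes were. At an unadjusted p under 0.05 the counts were 4 depleted members beside 11.6% of all genes, namely DMAP1, MRGBP, RUVBL1 and ING3, and 1 enriched member, MORF4L2, beside 8.47%. The fold change lay below 0 for 10 of the 15 members and for 36.7% of all genes, and below the median gene for 13 of the 15. With libraries scaled to their totals 14 members lay below 0 and again 13 below the median gene. The median member lay at -0.15. Limma on gene means called 1 member lower (DMAP1) beside 1.41% of all genes and 0 higher beside 0.77%, and at an unadjusted p under 0.05 it called 3 lower beside 8.73% and 1 higher beside 12.5%.

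DMAP1 recruits partner proteins to the complex and is shared with SRCAP. Its mean log2 level was 9.05 and 9.01 in AP 1 and AP 3, and 7.89, 8.02 and 8.28 in DMSO 1, 2 and 3. Every DMSO library lay below both AP libraries. The RRA adjusted p was 0.000418, and limma on the gene means gave an adjusted p of 0.028. Relative to the median gene the fold change was -1.11. Of its 10 sgRNAs 9 were lower in DMSO, and for 6 of them every DMSO library lay below both AP libraries. The lowest, sgRNA 1677 (the number that ends its name in the library), had 1016.5 and 532 normalized counts in AP 1 and AP 3, and 101, 142 and 181 in DMSO 1, 2 and 3. This fold change of -2.41 was the lowest of all 150 sgRNAs, and without it the other 9 sgRNAs of DMAP1 averaged -0.80. sgRNA 1675 had 1428.2 and 746 counts in AP and 395, 334 and 388 in DMSO. The highest, sgRNA 1680, went the other way with a fold change of 0.68, with 637 and 1348.9 counts in AP and 1196.6, 1453.5 and 1878.3 in DMSO, so that its groups overlapped. Without DMSO 2 the adjusted p of DMAP1 was 0.0512, above the threshold of 0.05, with a fold change of -0.94. Without any other single library it stayed between 0.0061 and 0.0253.

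MRGBP, the small subunit that binds MORF4L1 and MORF4L2, had a mean log2 level of 9.34 and 9.06 in AP 1 and AP 3, and of 8.46, 8.48 and 8.51 in DMSO 1, 2 and 3. The DMSO libraries lay close together and all below both AP libraries. The RRA adjusted p was 0.0374, whereas limma on gene means gave 0.0843. Relative to the median gene the fold change was -0.86. With libraries scaled to their totals it was -1.10, where the median gene lay at -0.24, and the adjusted p was 0.0475. Of the 10 sgRNAs 8 were lower. The lowest, sgRNA 3761, had 568 and 736 normalized counts in AP and 387, 174 and 154 in DMSO, and the highest, sgRNA 3763, had 2087.8 and 2347.5 in AP and 2450.4, 4448.9 and 2867.3 in DMSO. sgRNAs 3764 and 3768 behaved like the lowest, with fold changes of -1.40 and -1.45. The call was lost without any 1 of the 5 libraries: the adjusted p was 0.234, 0.133 and 0.0504 without DMSO 1, 2 and 3, and 0.144 and 0.0922 without AP 1 and AP 3, with fold changes from -0.86 to -0.58.

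Among the catalytic subunit and scaffolds, KAT5 had log2 levels of 7.96 and 8.09 in AP and 7.40, 8.11 and 7.12 in DMSO, and DMSO 2 lay above AP 3. sgRNA 3084 stood out in DMSO 2: it had 314 and 271 normalized counts in AP, 98.4 and 85.6 in DMSO 1 and DMSO 3, and 1567 in DMSO 2. The lowest sgRNA of KAT5, 3089, had 68.9 and 106 counts in AP and 23.7, 28.6 and 19.0 in DMSO, a fold change of -1.82 at a depth of as few as 12 reads, and the highest, 3087, had a fold change of 0.98. KAT5 missed the test with an adjusted p of 0.423. Without DMSO 2 its fold change was -0.76 with an adjusted p of 0.0641, and without DMSO 3 they were -0.27 and 0.824. TRRAP had a fold change of -0.22 ± 0.28 and EP400 one of -0.07 ± 0.23. The sgRNAs of TRRAP diverged the most of all members, from -1.43 for sgRNA 6623 to 2.24 for sgRNA 6627. The latter had 52.0 and 77.2 counts in AP and 496, 660 and 84.0 in DMSO, so that 2 of the 3 DMSO libraries carried it. In EP400 the range ran from -0.78 for sgRNA 1991 to 1.30 for sgRNA 1993.

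In the EPC module and the readers, EPC1, EPC2 and BRD8 stayed near the median gene, at 0.10, -0.11 and -0.11 relative to it. MBTD1, YEATS4 and ING3 lay lower, at -0.24, -0.34 and -0.41. EPC1 had a fold change of 0.24 ± 0.15, with sgRNAs from -0.51 (2006) to 0.89 (2010), and every DMSO library lay above both AP libraries. EPC2 had 0.04 ± 0.20, with sgRNAs from -0.76 (2014) to 0.63 (2016). ING3, which has a PHD finger, had a fold change of -0.26 ± 0.38 and an adjusted p of 0.395. Its sgRNAs split: 2873 and 2878 had fold changes of -1.83 and -1.70 with all DMSO libraries below AP, while 2872 had one of 1.54 with all DMSO libraries above AP. MBTD1 had a fold change of -0.10 ± 0.11, with sgRNAs from -0.88 (3596) to 0.48 (3597), and BRD8, a bromodomain protein, had 0.04 ± 0.21, with sgRNAs from -1.54 (812) to 1.46 (820). YEATS4, shared with SRCAP like DMAP1, had -0.19 ± 0.20, with sgRNAs from -1.17 (7127) to 0.49 (7124), and none of its sgRNAs separated the groups.

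Of the MRG paralogues MORF4L2 had the higher values. It had log2 levels of 9.28 and 9.34 in AP and of 9.89, 10.45 and 9.62 in DMSO, all above AP, and 8 of its 10 sgRNAs were higher. MORF4L1, which has the chromodomain that MORF4L2 lacks, had 8.62 and 8.70 in AP and 8.71, 9.11 and 8.39 in DMSO, with overlapping groups and a fold change of 0.07 ± 0.30. The highest sgRNA of MORF4L2, 3737, had 275 and 629 counts in AP and 853, 3247.4 and 759 in DMSO, and the lowest, 3735, had 284 and 170 in AP and 52.3, 139 and 211 in DMSO. For MORF4L1 the sgRNAs ran from -1.37 (3729) to 0.92 (3730).

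RUVBL1 and RUVBL2 form a joint ring of ATPases. RUVBL1 had log2 levels of 8.89 and 8.92 in AP and 8.18, 8.73 and 8.03 in DMSO, all below AP, with 8 of 10 sgRNAs lower and an adjusted p of 0.113. Without DMSO 2 its fold change was -0.80 and its adjusted p 0.0247. Its lowest sgRNA, 7783, had 300.1 and 619 counts in AP and 162, 155 and 91.9 in DMSO, and its highest, 7784, had a fold change of 0.75. RUVBL2 had levels of 6.96 and 7.63 in AP and 6.55, 7.45 and 7.43 in DMSO, with overlapping groups, a fold change of -0.15 ± 0.50 and sgRNAs from -1.91 (5308) to 1.26 (5309). Its AP libraries differed by more than the groups did.

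Counted over single sgRNAs, 36 of the 150 had every DMSO library below both AP libraries, or 24.0%, beside 12.1% of the 7776 sgRNAs that target genes. For 15 of the 150 every DMSO library lay above, or 10.0%, beside 11.2%. DMAP1 held 6 of the 36, RUVBL1 held 5 and MRGBP held 4. By limma at an unadjusted p under 0.05, 15 member sgRNAs were lower beside 3.64% of all and 5 were higher beside 3.16%, and after adjustment over all sgRNAs 0 of the 150 and 0 of the 7776 passed. Over genes, 3 members (DMAP1, MRGBP, RUVBL1) had all DMSO libraries below AP beside 14.1% of genes, and 2 (EPC1, MORF4L2) had all above beside 29.3%.

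The comparison of Taxol with AP asked the same question for growth in the drug. DMAP1 was depleted again, by 0.74 ± 0.20 on the log2 scale to 0.599 of its AP level, and MORF4L2 was enriched by 1.16 ± 0.34, or 2.24-fold. KAT5, ING3 and MRGBP had fold changes of -0.44 ± 0.22, -0.36 ± 0.12 and -0.46 ± 0.30 and missed the adjusted threshold. The AP libraries are the same as in the comparison above, so the 2 comparisons are not independent. By RRA 1 of 15 members was depleted beside 4.88% of all genes, and 1 was enriched beside 1.41%. At an unadjusted p under 0.05 these were 4 (DMAP1, KAT5, ING3, MRGBP) beside 13.0% and 1 beside 8.47%. The fold change lay below 0 for 11 of the 15 and for 32.3% of all genes, and below the median gene for 12, and with libraries scaled to their totals 14 lay below 0 and again 12 below the median gene. Limma on gene means called 0 members lower beside 0% of all genes and 0 higher beside 0.128%, and at an unadjusted p under 0.05 it called 1 lower beside 6.29% and 1 higher beside 16.9%.

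For DMAP1 the mean log2 levels in this table were 8.66 and 8.63 in AP 1 and AP 3 and 7.63, 8.10 and 7.97 in Taxol 1, 2 and 3, all below AP. The RRA adjusted p was 0.00276 and limma on gene means gave 0.0921. Relative to the median gene the fold change was -0.94. With libraries scaled to their totals it was -1.48 and the adjusted p was 0.0063. sgRNA 1677 was again the lowest, with 776 and 408 counts in AP and 122, 164 and 141 in Taxol, and 1680 again the highest, with 486 and 1034.6 in AP and 457, 1057.4 and 1797 in Taxol. Of the 10 sgRNAs 9 were lower, and 6 had every Taxol library below both AP libraries. Without sgRNA 1677 the other 9 averaged -0.60. The adjusted p was 0.102 without Taxol 3 and 0.130 without AP 3, at fold changes of -0.77 and -0.76.

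MORF4L2 had mean log2 levels of 8.89 and 8.96 in AP 1 and AP 3 and of 10.40, 9.62 and 10.26 in Taxol 1, 2 and 3. Every Taxol library lay above both AP libraries, and Taxol 2 was the lowest of the 3. The RRA adjusted p was 0.0239, and limma on gene means gave 0.0744. Relative to the median gene the fold change was 0.96. With libraries scaled to their totals it was 0.42, where the median gene lay at -0.54, and the adjusted p was 0.0202. Of the 10 sgRNAs 9 were higher, and 6 had every Taxol library above both AP libraries. sgRNA 3736 had 511 and 760 counts in AP and 4864.2, 1843.8 and 2127.7 in Taxol, and 3732 had 732 and 622 in AP and 1286.7, 2100.2 and 2973.4 in Taxol, so that both were high in every Taxol library. Others varied more between the Taxol libraries. sgRNA 3734, the highest by fold change (2.11), had 913 and 1000 counts in AP and 4297.2, 1059.9 and 15289 in Taxol, high in Taxol 1 and Taxol 3 and near AP in Taxol 2. sgRNA 3733 had 398 and 447 in AP and 6281.7, 530 and 760 in Taxol, with its high count in Taxol 1. In Taxol 3 the single sgRNA 3734 held 0.235% of all reads and 58.1% of the MORF4L2 reads, and without it the other 9 sgRNAs averaged 1.06. The lowest, 3735, had 217 and 130 counts in AP and 103, 115 and 199 in Taxol, a fold change of -0.34 with overlapping groups. The adjusted p was 0.0615 without Taxol 1, 0.115 without Taxol 3 and 0.101 without AP 3, at fold changes of 1.01, 1.08 and 1.20.

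KAT5 had log2 levels of 7.57 and 7.71 in AP and 7.29, 7.41 and 6.91 in Taxol, all below AP, with an adjusted p of 0.0883. Leaving out AP 1 took this to 0.0220 at a fold change of -0.50. Its lowest sgRNA, 3089, had 52.6 and 81.1 counts in AP and 28.9, 31.7 and 14.4 in Taxol, with as few as 6 reads, and its highest, 3081, had a fold change of 1.01. sgRNA 3084, the one with a high count in DMSO 2, had 91.2, 127 and 88.7 counts in Taxol and a fold change of -1.14. EP400 and TRRAP lay at -0.06 ± 0.13 and -0.09 ± 0.28, with sgRNAs from -0.64 (1996) to 0.60 (1993) and from -0.71 (6625) to 0.52 (6626). sgRNA 6627 of TRRAP, high in 2 DMSO libraries, had 57.0, 115 and 38.3 counts in the Taxol libraries of this table and a fold change of 0.37.

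ING3 had log2 levels of 8.47 and 8.25 in AP and 8.08, 8.04 and 7.89 in Taxol, all below AP, with an adjusted p of 0.0967 and sgRNAs from -1.42 (2873) to 0.81 (2872). MRGBP had 8.95 and 8.68 in AP and 8.74, 8.21 and 8.10 in Taxol, where Taxol 1 lay above AP 3, and its adjusted p was 0.296. Taxol 1 stood apart for sgRNA 3761, with 1644.7 counts beside 222 and 175 in Taxol 2 and 3, and for the highest sgRNA, 3763, with 7058.4 beside 1943.9 and 2316.9. Without Taxol 1 the fold change of MRGBP was -0.66 and its adjusted p 0.0197. Its lowest sgRNA here, 3764, had 964 and 811 counts in AP and 291, 376 and 280 in Taxol.

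MORF4L1 lay opposite to its paralogue, with log2 levels of 8.24 and 8.32 in AP and 7.89, 8.01 and 8.07 in Taxol, all below AP. Its fold change of -0.29 ± 0.08 did not pass the test, with an adjusted p of 0.480, and its sgRNAs ran from -1.29 (3729) to 0.60 (3730). RUVBL1 had 8.50 and 8.54 in AP and 8.28, 8.11 and 8.38 in Taxol, all below AP, with a fold change of -0.26 ± 0.11 and sgRNAs from -1.59 (7783) to 0.93 (7790). RUVBL2 had 0.22 ± 0.29 with overlapping groups and sgRNAs from -1.16 (5304) to 1.52 (5306). EPC1 lay at 0.26 ± 0.14, with every Taxol library above both AP libraries. The remaining members were EPC2 at 0.11 ± 0.12, MBTD1 at -0.19 ± 0.15, BRD8 at -0.13 ± 0.39 and YEATS4 at -0.20 ± 0.28. The extreme sgRNAs were 2008 (-0.53) and 2003 (0.84) for EPC1, 2018 (-0.57) and 2012 (1.29) for EPC2, and 3596 (-1.07) and 3594 (1.22) for MBTD1. For BRD8 they were 812 (-1.58) and 820 (0.91), and for YEATS4 they were 7130 (-1.17) and 7121 (1.19).

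For 36 of the 150 sgRNAs every Taxol library lay below both AP libraries, or 24.0%, beside 13.7% of all sgRNAs, and for 14 every Taxol library lay above, beside 12.3%. By limma at an unadjusted p under 0.05, 13 were lower beside 3.92% and 2 were higher beside 2.20%. Adjusted over all sgRNAs, 0 passed in either direction. Over genes, 5 members (DMAP1, KAT5, ING3, MORF4L1, RUVBL1) had all Taxol libraries below AP beside 14.5% of genes, and 2 (EPC1, MORF4L2) had all above beside 32.3%.

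The comparison of Taxol with DMSO set growth in the drug against growth in vehicle at the same number of doublings. No member passed the adjusted threshold: 0 of 15 were depleted, beside 0.257% of all genes, and 0 were enriched, beside 0.128%. At an unadjusted p under 0.05 the RRA counts were 0 depleted, beside 4.62%, and 2 enriched, MORF4L2 and RUVBL2, beside 6.68%. MORF4L2 had a fold change of 0.44 ± 0.39 and RUVBL2 one of 0.33 ± 0.35, each with an adjusted p of 0.645. Of the 15 members 8 lay below 0, beside 44.9% of all genes, and 9 below the median gene. The median member lay at -0.01. With libraries scaled to their totals 13 lay below 0 and again 9 below the median gene. With the median over sgRNAs these counts were 6 and 5. Limma on gene means called 0 members lower, beside 0% of all genes, and 0 higher, beside 0.128%, and likewise 0 at an unadjusted p under 0.05, beside 1.54% lower and 4.62% higher.

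The largest fold change downwards among the 15 members was that of MORF4L1, at -0.41 ± 0.23. Its log2 levels were 8.29, 8.60 and 7.96 in DMSO 1, 2 and 3 and 7.78, 7.90 and 7.95 in Taxol 1, 2 and 3, and every Taxol library lay below every DMSO library, by a narrow margin between DMSO 3 and Taxol 3. It was the only member of the 15 with all Taxol libraries below DMSO, beside 4.49% of all genes, and 0 members had all above, beside 6.29%. The RRA adjusted p was 0.973. Of its 10 sgRNAs 8 were lower. The lowest, 3726, had 49.3, 466 and 211 counts in DMSO and 40.1, 88.2 and 81.4 in Taxol, while 3723 separated the groups, with 320, 247 and 289 in DMSO and 120, 176 and 143 in Taxol. The highest was 3725, at 0.58.

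MORF4L2 in this table had log2 levels of 9.47, 9.94 and 9.20 in DMSO and 10.28, 9.51 and 10.13 in Taxol, so that Taxol 2 lay below DMSO 2. sgRNA 3731 was the highest and separated the groups, with 415, 426 and 511 counts in DMSO and 1117.8, 570 and 1683.6 in Taxol, and the lowest was 3737, at -0.76. For RUVBL2 the groups overlapped as well, at 6.13, 6.94 and 7.01 in DMSO and 7.04, 7.12 and 6.91 in Taxol. Its highest sgRNA, 5306, had 18.6, 60.5 and 29.5 counts in DMSO and 398, 49.8 and 63.8 in Taxol, so that 1 library set a fold change of 1.72 at a depth of as few as 20 reads, and its lowest was 5302, at -0.64.

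DMAP1, depleted against AP in both arms, had a fold change between the arms of 0.18 ± 0.22, with a 95% interval of limma on the gene means from -0.26 to 0.62. KAT5 had -0.01 ± 0.37 with an interval from -0.48 to 0.47, and MRGBP had 0.21 ± 0.25 with an interval from -0.24 to 0.65. RUVBL1 lay at 0.28 ± 0.24, TRRAP at 0.09 ± 0.35, EP400 at -0.04 ± 0.19, EPC1 at -0.03 ± 0.15 and EPC2 at 0.02 ± 0.21. ING3 lay at -0.14 ± 0.29, MBTD1 at -0.14 ± 0.14, BRD8 at -0.22 ± 0.37 and YEATS4 at -0.05 ± 0.28. Their groups overlapped in every case.

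Over single sgRNAs the arms gave few separated values. For 3 of the 150 every Taxol library lay below every DMSO library, or 2.00%, beside 4.30% of all sgRNAs, and for 8 every one lay above, or 5.33%, beside 4.75%. By limma at an unadjusted p under 0.05, 1 was lower, sgRNA 6627 of TRRAP, beside 1.57%, and 1 was higher, sgRNA 5306 of RUVBL2, beside 2.03%. Adjusted, 0 passed. sgRNA 6627 had 370, 461 and 62.4 counts in DMSO and 52.8, 106 and 35.2 in Taxol, a fold change of -1.90. The lowest sgRNA of the members other than TRRAP lay between -1.35 (1996 of EP400) and -0.32 (1672 of DMAP1), and the highest sgRNA of those other than RUVBL2 between 0.54 (3088 of KAT5) and 1.21 (3761 of MRGBP).

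Shares of the recovered reads put all 8 libraries on one scale. The 150 sgRNAs are 1.91% of the library and held 1.67% and 1.63% of the reads in AP 1 and AP 3, 1.45%, 1.57% and 1.43% in DMSO 1, 2 and 3, and 1.11%, 1.51% and 1.27% in Taxol 1, 2 and 3. Every grown library lay below both AP libraries. On the same scale the median of all 779 genes held 0.122% and 0.121% in AP, 0.119%, 0.118% and 0.119% in DMSO and 0.0917%, 0.109% and 0.102% in Taxol, so that the median gene lay below AP in every grown library as well. Among the 15 members 3 (DMAP1, MRGBP and RUVBL1) had all 6 grown libraries below AP, beside 13.4% of all genes, and 1 (MORF4L2) had all above, beside 2.95%. The DMAP1 sgRNAs held 0.130% and 0.115% in AP, 0.0606%, 0.0440% and 0.0818% in DMSO, and 0.0276%, 0.0693% and 0.0604% in Taxol. The MORF4L2 sgRNAs held 0.137% and 0.142% in AP, 0.251%, 0.252% and 0.153% in DMSO, and 0.256%, 0.198% and 0.404% in Taxol. DMAP1 was thus lower and MORF4L2 higher than in AP in all 6 grown libraries. In the smallest library, Taxol 2, the 95% Wilson interval for DMAP1 ran from 0.0658% to 0.0730%. Such intervals cover counting error only, and reads of PCR amplicons are not independent molecules.

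Single sgRNAs varied widely between libraries of a group after growth. Between AP 1 and AP 3 the median member sgRNA differed 1.37-fold and 0 of 150 differed more than 4-fold, beside 1.97% of all sgRNAs. Among the DMSO libraries the median ratio of the highest to the lowest was 2.31, and 35 sgRNAs (23.3%) exceeded 4-fold, beside 23.3% of all. Among the Taxol libraries the median was 2.09, and 25 (16.7%) exceeded 4-fold, beside 24.1% of all. A ratio over 3 libraries is larger than one over 2 by construction, so the AP value and the others are not on a par. The widest ratios were 18.1 for sgRNA 3084 of KAT5 in DMSO and 15.05 for sgRNA 815 of BRD8 in Taxol.

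For the paralogous or paired members the difference within each library was compared between groups, 9 comparisons in all. These pairs were picked after values had been seen. MORF4L2 exceeded MORF4L1 by 0.65 to 0.66 on the log2 scale in the AP libraries, by 1.18 to 1.34 in DMSO and by 1.61 to 2.50 in Taxol, and none of these ranges overlapped. The difference grew by 0.60 ± 0.07 in DMSO and by 1.45 ± 0.37 in Taxol against AP, and by 0.85 ± 0.33 in Taxol against DMSO, each with a two-sided exact permutation p of 0.1, the smallest these designs allow, and 0.300 after adjustment over the 9. EPC1 against EPC2 changed by 0.21 ± 0.32, 0.15 ± 0.23 and -0.05 ± 0.34 in DMSO against AP, Taxol against AP and Taxol against DMSO. RUVBL2 against RUVBL1 changed by 0.44 ± 0.50, 0.49 ± 0.32 and 0.05 ± 0.41. The exact permutation p of these pairs lay between 0.300 and 1, and their ranges overlapped in each comparison.

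Members that NuA4-TIP60 shares with other complexes had unlike values. For DMAP1 and YEATS4, both shared with SRCAP, the fold changes against AP were -0.97 and -0.19 in DMSO and -0.74 and -0.20 in Taxol. The 10 members that are not part of SRCAP, INO80 or SAGA had medians of -0.02 and -0.16 in DMSO and Taxol against AP. Of the 10, 8 lay below the median gene in each comparison. Of 4 further subunits that the library targets, ACTL6A, MEAF6, VPS72 and ACTB, 0 were called by RRA in any comparison. In DMSO against AP 3 of the 4 lay below 0 and 2 (ACTL6A at -0.52 and ACTB at -0.61) passed at an unadjusted p under 0.05. Among 5 SRCAP genes, ACTR6, an actin-related subunit, was depleted by RRA in DMSO against AP (-0.48 ± 0.30, adjusted p = 0.0192). Only 5 of its sgRNAs were lower. Among 12 INO80 genes 0 were called by RRA in any comparison. At an unadjusted p under 0.05, 2 INO80 genes were enriched in Taxol against AP and 1 was depleted in Taxol against DMSO. SAGA, which shares TRRAP, had medians of 0.17 in DMSO and 0.23 in Taxol against AP, with 8 genes below the median gene in each. The library targets 18 SAGA genes. Of these USP22, its deubiquitinase, was enriched in Taxol against AP (1.78 ± 0.33, adjusted p = 9.23e-08) and against DMSO (1.54 ± 0.31, adjusted p = 1.17e-05), and TADA3 was enriched in Taxol against AP (1.25 ± 0.40, adjusted p = 0.0317), while TRRAP lay between -0.22 and 0.09 in the 3 comparisons.

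Ribosomal protein genes are a reference for genes that growing cells need. The 13 in the library had medians of -0.58 in DMSO and -0.42 in Taxol against AP, 13 of 13 lay below 0 in both, and 2 and 4 were depleted. The values of those called in DMSO were -1.11 ± 0.21 (RPS18) and -0.94 ± 0.27 (RPL11). In Taxol those called included RPS18 at -0.85 ± 0.19, RPL11 and RPS15A. DMAP1 and MRGBP lay below the median ribosomal gene in both comparisons with AP. Counted from the lowest of 779 genes, DMAP1 ranked 6 in DMSO and 11 in Taxol against AP, and MORF4L2 ranked 753 and 771.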

How the data were processed

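MAGeCK 0.5.8 is the tool named in the submitters' processing notes; how reads were mapped is not given in the sources used here. The authors' deposited sgRNA tables, 1 for each comparison, hold normalized counts with the values of a group joined in a cell. The deposited log2 fold change, score and p-value columns and the gene tables (RRA score, p-value, false discovery rate, log2 fold change) were not used. A cell of the AP group joins 3 values, though only AP 1 and AP 3 are labelled. Values 1 and 3 were taken for them, and the values in DMSO and Taxol cells as replicates 1 to 3, in the order of the digits in the table names, which is an assumption. AP value 2, 2 value columns in all, was not used. Sequences of the sgRNAs were not used here.

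The members and gene lists were chosen with earlier results of these data known. Values were taken as log2(normalized count + 1), and every sgRNA of the whole table went through lmFit and eBayes (trend) of limma 3.58.1 in R 4.3.3, with no covariates. Ranks of the moderated statistic were combined by alpha-RRA over the lowest or highest 25% of ranks, with exact one-sided p for independent uniform ranks, adjusted by Benjamini-Hochberg over the 779 genes with at least 3 sgRNAs and called under 0.05. This is the aggregation the study names, on another ranking. Limma was also run on gene means. The code was tested on simulated data. Exact permutation tests used scipy 1.17.1.

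Normalized values were whole multiples of a step for 98.98% to 99.99% of the values of a library within 0.1 read, which gave the reads, from 2045984 to 11771418 a library. Deviations of same-numbered Taxol and DMSO libraries from their group means correlated at 0.169, 0.131 and 0.206 over sgRNAs, so these numbers were taken to pair the libraries, while with AP they correlated between -0.017 and 0.036. The main tests of Taxol against DMSO, their SDs and intervals, and the permutation tests did not use this pairing. Only the replicate block did. The genes and sgRNAs named are all 15 members, the lowest and highest sgRNA of each with the libraries of those called, and other genes only where RRA called them within a listed complex or the ribosomal proteins. The values of 1 called gene are not reported here. Further sgRNAs, the 2 unadjusted values of ACTL6A and ACTB and the pairs of paralogues were chosen after values were seen.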

Additional observations from a re-analysis of the deposited data

How the results depend on the processing

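DMAP1 kept its direction in both comparisons with AP, as did MRGBP, and MORF4L2 stayed above 0 in all 3 comparisons, under every alternative tried. Of 600 recomputed gene values, 506 kept their direction and their side of the threshold, 15 lost a call, 4 gained one and 75 changed sign, none of the last being called. These calls are those of RRA, not of limma on gene means. Some of the 600 values could not change. The median over sgRNAs leaves the RRA p as it was, and ranking by fold change leaves the fold change. Voom on the recovered reads nearly repeats the gene means of library totals. Against AP, a block for replicate number repeats the fold changes without DMSO 2 or Taxol 2. AP is represented by 2 libraries, and the shallowest library held 260.4 reads per sgRNA. The causes of these changes were not tested.

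In DMSO against AP, depleted members numbered 1 with the replicate block (RUVBL1, adjusted p 0.0323, with DMAP1 at 0.0842 and MRGBP at 0.145), 1 with voom on the recovered reads (an alternative added after the data had been seen) and 1 with limma on gene means, and 1 without each single library. This block uses no DMSO 2, as AP has no such number, and the numbers do not pair these groups. Of all 779 genes, RRA called 20 depleted with the block, 17 with voom and 13 to 19 without single DMSO libraries. Limma on gene means called 11 lower. Lower sgRNAs numbered 25 with library totals, and higher ones 3 with library totals, 1 with non-targeting centring and 3 with voom. Without single libraries the counts reached 17 lower without DMSO 2, beside 4.12% of all sgRNAs. They reached 10 higher without DMSO 3, beside 5.83%. Both counts were lowest without AP 1, which leaves 1 AP library. Over all sgRNAs 7.23% were lower with library totals, and 0.849%, 0.72% and 0.926% were higher with library totals, non-targeting centring and voom. Limma on gene means called 4 members lower with library totals, the block and voom, beside 12.8%, 5.52% and 12.7% of all genes. It called 0 with the median over sgRNAs, beside 0.385%, and 0 to 2 without single DMSO libraries, beside 0% to 2.57%.

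In Taxol against AP, limma on gene means left 0 depleted and 0 enriched, beside 0% and 0.128% of all genes. The replicate block left 0 members enriched (MORF4L2, adjusted p 0.106), beside 4 of all 779 genes. Here the block uses no Taxol 2, as AP has no such number. Without single Taxol libraries 0 to 2 members were depleted, beside 11 to 36 of 779 genes, and 0 to 1 enriched, beside 3 to 8. Lower sgRNAs numbered 25 with library totals, 27 with non-targeting centring, 7 with the block and 30 with voom, and 3 to 15 without single Taxol libraries. Higher ones numbered 0, 1, 6 and 0. They reached 5 without Taxol 3 and were fewest without AP 1. Over all sgRNAs 10.6%, 10.5%, 2.84% and 13.0% were lower in that order, and 0.566%, 0.592%, 6.03% and 0.579% higher. Without single Taxol libraries 2.47% to 4.27% of all sgRNAs were lower and 3.94% to 4.62% higher. Limma on gene means called 2, 8, 1 and 2 members lower with library totals, non-targeting centring, the block and voom, beside 6.29%, 19.3%, 2.05% and 5.65% of all genes. It called 1 higher with the block, beside 6.16%, and 0 to 1 higher without single Taxol libraries, beside 0% to 1.03%. Library totals, non-targeting centring and voom moved the median of all genes by -0.74, -0.53 and -0.74 here.

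In Taxol against DMSO, where the numbers were taken to pair the libraries, the replicate block gave 2 lower sgRNAs, beside 2.07% of all. It changed no call of a member. Over all 779 genes limma on gene means called 1 lower and 2 higher with the block, and 0 and 1 without it. Lower sgRNAs numbered 4 with library totals and 4 with voom, beside 3.58% and 3.49% of all, and higher ones 0 with voom, beside 1.02%. Without single libraries lower ones ran from 0 to 3, beside 0.913% to 2.64% of all. Higher ones ran from 0 to 4, beside 1.39% to 3.51%.

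Fold changes that changed sign are given as log2 values. Library totals and voom scale the gene means in the same way, so that their values nearly match by construction and are not separate checks. With both, those changing sign in DMSO against AP were EPC1 -0.14, EPC2 -0.34, MORF4L1 -0.31 and BRD8 -0.34. In Taxol against AP they were EPC1 -0.48, EPC2 -0.63 and RUVBL2 -0.51. In Taxol against DMSO they were TRRAP -0.22, EPC2 -0.29, DMAP1 -0.13 and MRGBP -0.10, and RUVBL1 at -0.029 with library totals and -0.027 with voom. With non-targeting centring they were EPC1 -0.065, EPC2 -0.27, MORF4L1 -0.23 and BRD8 -0.27 in DMSO against AP, EPC1 -0.26, EPC2 -0.42 and RUVBL2 -0.30 in Taxol against AP, and TRRAP -0.081 and EPC2 -0.15 in Taxol against DMSO. With the median over sgRNAs they were BRD8 -0.24 and YEATS4 0.10 in DMSO against AP, and EPC2 -0.15, YEATS4 0.16 and RUVBL2 -0.13 in Taxol against AP. The same setting gave KAT5 0.15, TRRAP -0.074, EP400 0.17, EPC2 -0.24, ING3 0.11 and YEATS4 0.019 in Taxol against DMSO. With the replicate block they were MORF4L1 -0.11 and BRD8 -0.012 in DMSO against AP.

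Without single libraries the sign was not stable for these ranges. In DMSO against AP they were BRD8 -0.048 to 0.18, EP400 -0.23 to 0.026, EPC2 -0.093 to 0.13, MORF4L1 -0.11 to 0.25 and RUVBL2 -0.48 to 0.18. In Taxol against AP they were BRD8 -0.38 to 0.084, EP400 -0.12 to 0.029, RUVBL2 -0.11 to 0.56 and TRRAP -0.28 to 0.059. In Taxol against DMSO they were EP400 -0.11 to 0.096, EPC1 -0.10 to 0.063, EPC2 -0.050 to 0.17, ING3 -0.29 to 0.085, KAT5 -0.20 to 0.24, TRRAP -0.10 to 0.26 and YEATS4 -0.24 to 0.082.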
